A study of Mus musculus with 4 samples.

Results

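Genes for the subunits of the mitochondrial respiratory chain and of ATP synthase were compared between stem cells and non-stem cell epithelia of the mouse submandibular gland, a salivary gland. Both populations were sorted by flow cytometry from freshly taken glands of C57BL/6 mice aged 8 to 10 weeks, and each was measured on 2 one-colour Agilent arrays. No other genotype, transgene or treatment is given in the labels, the labels do not name the sort markers, and they do not say whether replicates are from different animals or different sorts. The p-values below therefore reflect only how far these samples scatter, which may be technical scatter. The members are all array genes whose names begin with Nduf followed by a, b, c, s, v or ab and a number (complex I), are Sdh followed by a to d (complex II), or begin with Uqcr (complex III), Cox followed by 4 to 8 (complex IV) or Atp5 (complex V). There were 86 of them among 36163 gene names on the array, 38 in complex I, 4 in complex II, 8 in complex III, 19 in complex IV and 17 in complex V. There were 4 names that now carry other symbols in RefSeq, among them Cox4nb (now Emc8), Atp5s (now Dmac2l) and Atp5sl (now Dmac2), which are not counted among the subunits of the complex their old name points to. A value is the log2 signal of a gene's brightest probe after each array's 75th percentile was set to 0, and a difference is the mean of the stem cell arrays minus that of the non-stem arrays.

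The respiratory chain sits in the inner mitochondrial membrane. Complexes I and II pass electrons from NADH and succinate to ubiquinone, complex III passes them on to cytochrome c, and complex IV hands them to oxygen, while complexes I, III and IV pump protons. Complex V, ATP synthase, lets the protons flow back and makes ATP. Most subunits are encoded in the nucleus and a small core in mitochondrial DNA, and several subunits of complex IV come in a ubiquitous form and a form known from muscle, brown fat, lung or testis. Salivary duct cells are rich in mitochondria, which serve salt transport.

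The 75th percentile of the signal lay between 34.0 and 48.9 on the stem cell arrays and between 71.1 and 84.2 on the non-stem arrays, with 0 saturated spots on each array. Across all tested genes, replicate arrays correlated at 0.986 and 0.992, and arrays from opposite groups at 0.923 to 0.935. Over the 82 tested members the same correlations were 0.998 and 0.999 within groups and 0.977 to 0.986 between them, and in both cases the genes are not independent replicates. Of 6 basal duct markers 5 were called higher in stem cells, Krt5 and Krt14 among them. Of 8 acinar markers 5 were called lower, the water channel Aqp5 among them, and Prol1 and Slc12a2 did not pass. Smr3a was called higher, but it was well above background on the stem cell arrays only. Its call rests on non-stem readings below background and gives no measure of size. All 5 general epithelial markers were well above background on the 4 arrays. Krt7, Krt8 and Krt18 were called higher in stem cells (1.54, 0.59 and 0.80), Epcam was called lower (-1.22 ± 0.19), and Cdh1 did not pass. Of 2 fibroblast, 3 leukocyte and 3 endothelial markers tested, 1 each was called higher (Dcn, Itgam and Cldn5) and 0 lower. Cldn5 was well above background on only 1 of the non-stem arrays. The summed signal of 9 striated and granular duct markers, relative to the 75th percentile, was 1260 and 1280 for stem cells, against 236 and 239 for non-stem cells. Of these 9, 4 were called higher, with Klk1, Klk1b5 and Klk1b24 the highest differences, Egf was called lower (-1.26 ± 0.15), and 4 did not pass. That of 8 acinar markers was 702 and 724 against 4020 and 4250. Summed signal of 5 erythroid genes, all called lower in stem cells, was 56.8 and 57.2 against 237 and 273. Among these genes Slc4a1 was well above background on the non-stem arrays only, so its call rests on stem cell readings below background. These markers moved with the groups, and their part in the values below was not tested. In such bulk samples fewer cells of a type and less RNA per cell cannot be told apart. After scaling, 7 E1A spike-in controls (the 2 dimmest and the brightest were left out) were higher on the stem cell arrays by a median of 2.26 on the log2 scale, and they were not used to scale the members.

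With the scanner's own background correction, the members as a set stood at nearly the same level in both populations. Of 82 members that were well above background on at least 2 arrays, limma called 3 higher in stem cells and 1 lower at an adjusted p of 0.05, which is 4.88% of them, and 78 did not pass. Over all 17306 genes tested, 31.1% were called, 14.4% higher and 16.7% lower. The median difference of the members was -0.02, with quartiles of -0.12 and 0.15, against a median of -0.01 and quartiles of -0.45 and 0.39 over all genes. A difference within 0.5 of 0 on the log2 scale was found for 76 members (92.7%) and for 9802 of all genes (56.6%). The interval of the difference is what limits this statement. The 95% interval had a median width of 0.402 to either side, and for 77 members it lay entirely within 1 of 0, and Ndufs8, Cox6b2, Cox7a1 and Cox8b were among the exceptions. The 4 array medians over the members were 5.61 and 5.80 in stem cells against 5.72 and 5.62 in non-stem cells, so the groups overlapped.

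The remaining 4 members, Ndufa4l2, Cox6a2, Cox7b2 and Cox8c, were well above background on none of the arrays and were not tested. Of the tested members, 80 were well above background on all 4 arrays. The arrays of the groups did not overlap for 23 members that were higher in stem cells (28.0%) and 19 that were lower (23.2%), where all genes gave 35.1% and 36.1%. At an unadjusted limma p of 0.05 there were 8 members of 82, 5 of them higher. Over all 17306 genes tested there were 3603 higher and 4005 lower. These all-gene counts are the background for every unadjusted count given below. For 6 of the 25 members with several tested probes the probes disagreed in sign (Ndufb5, Ndufv3, Cox7a2l, Cox7c, Atp5g2 and Atp5k), and none of these was called. The brightest probes of Ndufs3, Ndufs6, Uqcrq, Cox5b and Atp5g2 share a run of 30 bases with probes of other names, so their separate values are uncertain.

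**Figure D1:**
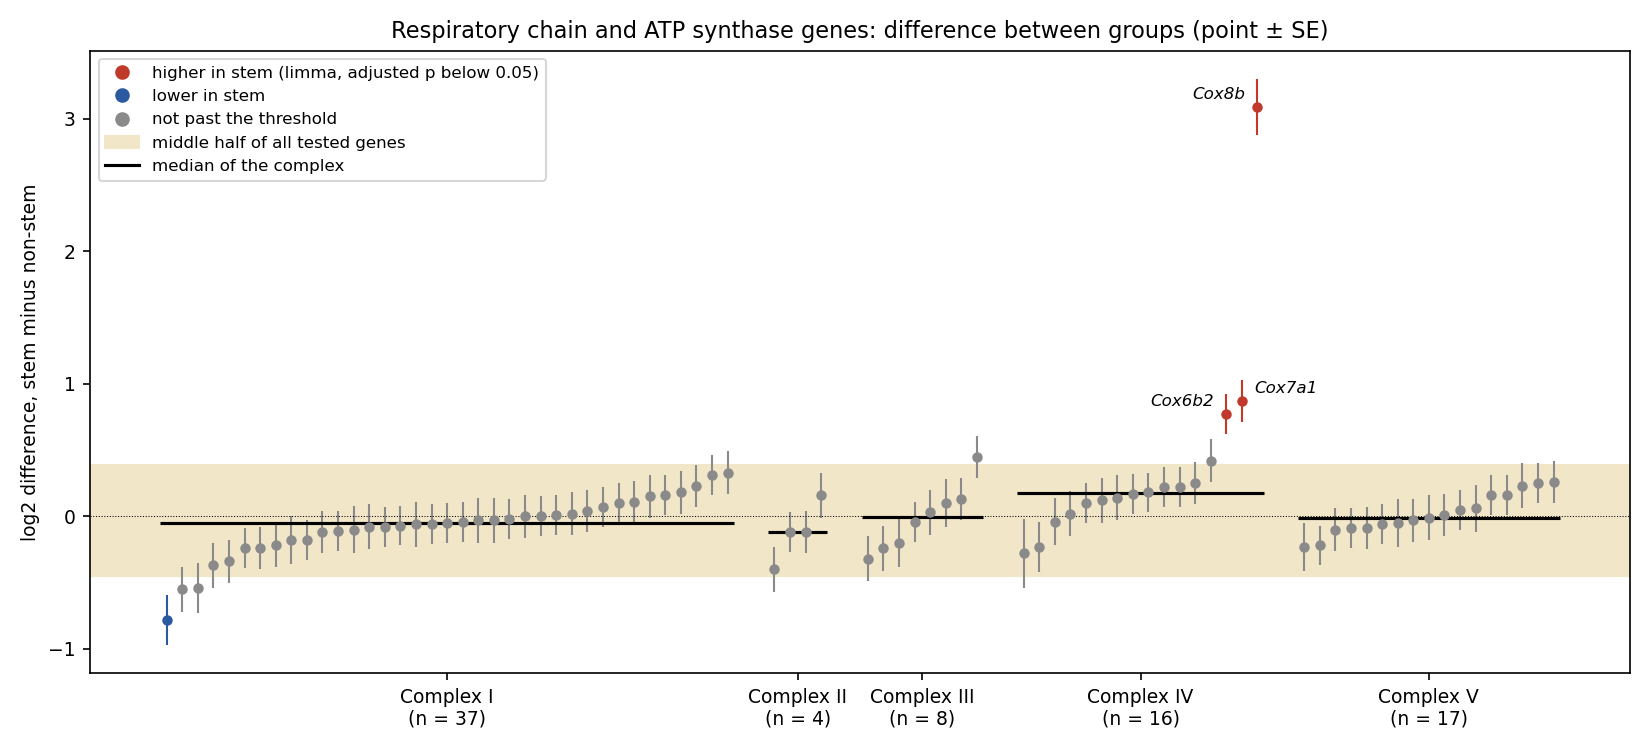
Log2 difference between stem cells and non-stem cell epithelia (vertical axis, stem minus non-stem) for the 82 tested genes, ordered within complexes I to V along the horizontal axis. Bars are 1 standard error of the limma fit, black lines are the median of each complex, and the band spans the quartiles of all tested genes from -0.45 to 0.39. Most points lie inside the band, and the labelled points are Cox6b2, Cox7a1 and Cox8b, above it.

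This flat picture depended on a setting that changed the background correction and also added an offset. With normexp correction of the raw mean signals in place of the scanner's own background-corrected signal, 1 member was called higher and 39 lower, with a median of -0.43 against -0.07 over all genes, and 74 of 82 members lay below the all-gene median. The lower calls were 23 of 37 in complex I, 3 of 4 in complex II, 4 of 8 in complex III, 1 of 16 in complex IV and 8 of 17 in complex V. Over all genes normexp called 10.9% higher and 26.5% lower. These shares are also the background for the normexp counts of other lists below. The normexp setting also added an offset of 50 to each signal. The 75th percentiles of the scanner's signal were 34.0 and 48.9 on the stem cell arrays, against 84.2 and 71.1 on the non-stem arrays. Correction and offset were changed together, and their separate parts in the shift were not tested. Bright genes in general moved with that setting. Among the 1731 brightest genes, which hold 55 members, the median was 0.13 with the main setting and -0.32 with normexp, and 42.1% were then called lower, against 43.6% of those 55 members, whose median was 0.02 and then -0.42. The direction of the set as a whole is therefore not settled by these arrays.

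Complex I takes electrons from NADH and is the largest of the complexes, with many small accessory subunits around a conserved core. Of its 37 tested members 1 was called lower and 0 higher, with a median difference of -0.05, 23 members below 0 and 14 above. At an unadjusted p of 0.05 limma gave 3 lower and 0 higher. The array medians were 5.45 and 5.54 in stem cells against 5.55 and 5.37 in non-stem cells, which overlap.

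Among the core subunits of complex I described here, none passed. Ndufs8, which carries iron-sulfur clusters next to the ubiquinone site, stood at 2.38 and 2.43 in stem cells against 2.74 and 3.16 in non-stem cells. The groups did not overlap, and the difference of -0.54 ± 0.19 (SE, n = 2 and 2, as throughout) did not pass (limma adjusted p = 0.088). Ndufs7, which holds the last iron-sulfur cluster before ubiquinone, differed by -0.06 ± 0.15. Ndufs1, the large iron-sulfur subunit, differed by 0.07 ± 0.15 and Ndufs3 by 0.23 ± 0.16. Ndufv1, which binds NADH and the flavin, differed by 0.02 ± 0.16, and its partner Ndufv2 by 0.01 ± 0.15. These 5 subunits had adjusted p-values between 0.31 and 0.96, and 95% intervals that lay between -0.44 and 0.62.

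Among the accessory subunits of complex I, the differences ran from -0.55 to 0.33. Ndufa10 was at the lower end, a choice made after the values were seen, as were all the range ends named here. It gave 1.98 and 2.12 in stem cells against 2.47 and 2.72 in non-stem cells, with a difference of -0.55 ± 0.17 that did not pass (limma adjusted p = 0.063). At the upper end were Ndufa5 with 0.33 ± 0.16 and Ndufa9 with 0.31 ± 0.15 (adjusted p = 0.17 and 0.16), and neither passed. Ndufa4, which was named as a complex I subunit and is now known to belong to complex IV, differed by -0.12 ± 0.16. Its paralogue Ndufa4l2, known as a gene induced by low oxygen, was well above background on none of the arrays. Ndufab1, the mitochondrial acyl carrier protein, gave 1.03 and 1.01 against 0.97 and 0.87, a difference of 0.10 ± 0.15. The families of small subunits did not separate either, since the 9 Ndufb genes other than Ndufb5 had differences between -0.24 and -0.03 and Ndufb5 had 0.18 ± 0.16.

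Complex II is both the succinate dehydrogenase of the citric acid cycle and an entry point to the chain, and all of its subunits are nuclear. Limma called 0 of its 4 members, and 0 at an unadjusted p of 0.05, with a median difference of -0.12. Sdha, the flavin-bearing catalytic subunit, gave 5.39 and 5.48 in stem cells against 5.40 and 5.16 in non-stem cells, so the groups overlapped, with a difference of 0.16 ± 0.17 (adjusted p = 0.5). Sdhb, the iron-sulfur subunit, gave 6.20 and 6.39 against 6.80 and 6.60. The groups did not overlap there, and the difference was -0.40 ± 0.17 (adjusted p = 0.13), with a 95% interval from -0.82 to 0.02. A second, dimmer Sdhb probe, also well above background on all 4 arrays, differed by -0.74 ± 0.16 and passed in a fit over probes (limma adjusted p = 0.027), so the absence of a call for Sdhb depends on the probe. The membrane anchors Sdhc and Sdhd differed by -0.12 ± 0.15 and -0.12 ± 0.16 (adjusted p = 0.56 and 0.59). The array medians were 4.96 and 5.07 in stem cells against 5.09 and 4.90 in non-stem cells.

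Complex III, the cytochrome bc1 complex, likewise had 0 members called out of 8. The median difference was -0.00 and 4 members lay on each side of 0. Only Uqcr10 passed an unadjusted p of 0.05. This small subunit gave 6.72 and 6.75 in stem cells against 6.38 and 6.20 in non-stem cells, without overlap, and its difference of 0.45 ± 0.16 had an adjusted p of 0.083. At the other end Uqcrq, a small subunit that binds ubiquinone, gave 6.09 and 6.32 against 6.61 and 6.43, a difference of -0.32 ± 0.17 (adjusted p = 0.21). The Rieske iron-sulfur protein Uqcrfs1, the electron-carrying subunit, gave 4.34 and 4.44 against 4.77 and 4.49 and differed by -0.24 ± 0.17 (adjusted p = 0.33). The core proteins Uqcrc1 and Uqcrc2 differed by -0.20 ± 0.18 and -0.04 ± 0.15, and the hinge protein Uqcrh by 0.13 ± 0.16.

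Complex IV, cytochrome c oxidase, held all 3 members called higher, out of 16 tested, and 0 called lower (0 lower also at an unadjusted p of 0.05, with 4 higher). The higher calls were 18.8% of the complex, near the 14.4% of all genes. Its median difference was 0.18, with 13 members above 0 and 3 below, and 10 (62.5%, against 35.1% of all genes) were higher in stem cells without overlap and 0 lower. All 3 called genes, Cox8b, Cox7a1 and Cox6b2, are tissue forms of a subunit that also has a ubiquitous form. The median of the 10 ubiquitous subunits alone was also 0.18, with a range from -0.23 to 0.42 and 9 above 0, and none of these 10 passed. The array medians of the complex were 5.55 and 5.66 in stem cells against 5.56 and 5.41 in non-stem cells, which overlap. With normexp correction the median of complex IV turned to -0.22 and stayed the highest of the 5 complexes, the next being -0.39 in complex V.

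Cox8b, the form of subunit 8 known from heart, skeletal muscle and brown fat, was measured at -0.63 and -0.79 in stem cells. On the non-stem arrays it read -3.56 and -4.04, where it was not well above background. It passed the filter through the stem cell arrays alone, so the fitted difference of 3.09 ± 0.21 (limma adjusted p = 0.00074) rests on readings below background and is no measure of its size. Since the non-stem level was not well above background, the fold is stated against a floor, as 3.93-fold higher in stem cells. That figure sets the stem cell mean against the lowest signal well above background on each non-stem array or the probe's own, whichever is higher, and the p-value does not test it. It is no guaranteed minimum. Tnnt3, not well above background, read -2.63 on non-stem array 2, above that array's floor of -2.66. With normexp the fitted log2 difference was 0.84, a smaller fold than this, and the filter on all 4 arrays left the gene untested. The ubiquitous Cox8a gave 8.10 and 8.17 in stem cells against 7.99 and 7.94 in non-stem cells, a difference of 0.17 ± 0.15 (adjusted p = 0.41), and the testis form Cox8c was well above background on none of the arrays.

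Cox7a1, the heart and muscle form of subunit 7a, gave 3.76 and 3.82 in stem cells against 3.03 and 2.81 in non-stem cells. The arrays of the groups stood well apart relative to their spread, and the difference was 0.87 ± 0.16 (limma adjusted p = 0.014; 95% interval 0.46 to 1.27), or 1.83-fold. The ubiquitous Cox7a2 gave 5.72 and 5.88 against 5.78 and 5.53, which overlap, and differed by 0.14 ± 0.17 (adjusted p = 0.56). Cox7a2l, a related protein that joins complexes III and IV into supercomplexes, differed by 0.12 ± 0.17, and its tested probes ranged from -0.42 to 0.32. Cox6b2, the testis form of subunit 6b, gave 0.17 and 0.19 in stem cells against -0.58 and -0.59 in non-stem cells. The spread within each group was small beside the difference of 0.77 ± 0.15 (limma adjusted p = 0.015; 95% interval 0.40 to 1.13), or 1.70-fold. Its ubiquitous partner Cox6b1 gave 2.33 and 2.38 against 2.09 and 2.25, a difference of 0.18 ± 0.15 (adjusted p = 0.4). The Cox7a1 and Cox6b2 calls were lost with normexp (differences 0.39 and 0.38, adjusted p = 0.083 and 0.051), without the dim filter (0.098 and 0.11), without non-stem replicate 1 (0.06 and 0.084) and without non-stem replicate 2 (0.1 and 0.1).

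Not every tissue form followed. Cox4i2, the form of subunit 4 known from lung and from low oxygen, gave -0.51 and -1.16 in stem cells against -0.71 and -0.41 in non-stem cells, with overlap and a difference of -0.28 ± 0.26 (adjusted p = 0.45). Its ubiquitous form Cox4i1 gave 7.75 and 7.82 against 7.59 and 7.54, a difference of 0.22 ± 0.15 (adjusted p = 0.3). The muscle form Cox6a2 and the testis form Cox7b2 were well above background on none of the arrays. Their ubiquitous partners Cox6a1 and Cox7b differed by -0.23 ± 0.19 and 0.22 ± 0.15 (adjusted p = 0.39 and 0.31). Cox6c, which has a single form, had the largest difference among the ubiquitous subunits, with 6.19 and 6.18 against 5.87 and 5.66 and 0.42 ± 0.16 (adjusted p = 0.099). Cox5a and Cox5b, which sit beside the catalytic core, differed by 0.25 ± 0.16 and 0.10 ± 0.15, and Cox7c by 0.02 ± 0.17. The brightest Cox5b probe is placed on chromosome 15, whereas RefSeq has the gene on chromosome 1, and this placement was not resolved. Cox4nb, a component of a membrane complex of the endoplasmic reticulum, differed by -0.04 ± 0.18.

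**Figure D2:**
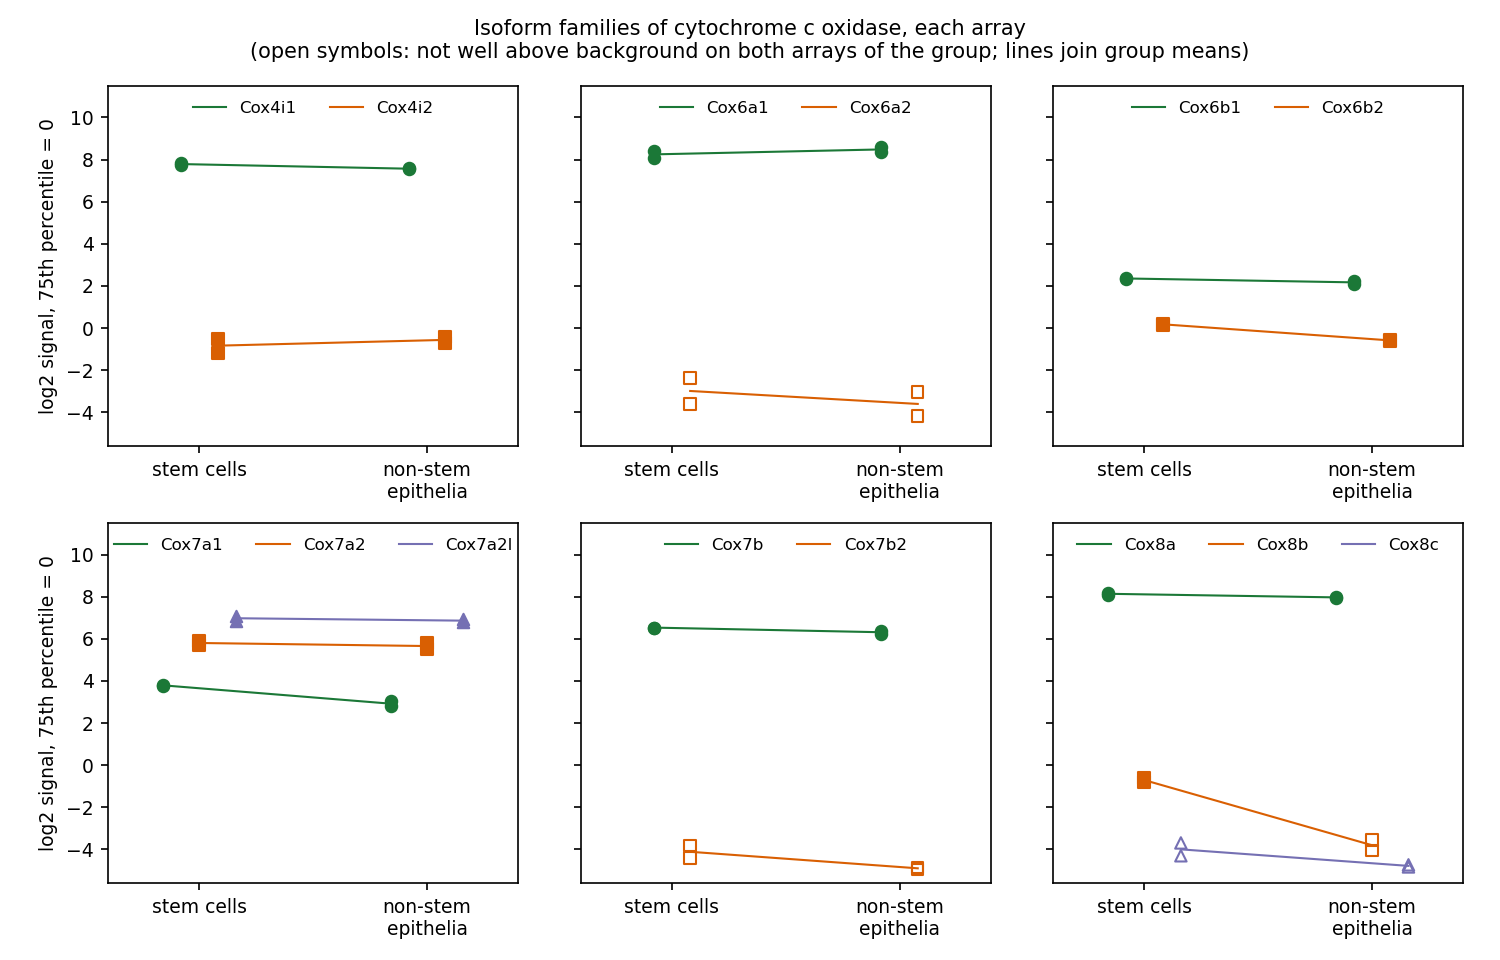
Log2 signal (vertical axis, each array's 75th percentile at 0) of 6 families of cytochrome c oxidase isoforms on the stem cell and non-stem arrays. Points are single arrays, lines join group means, and open symbols mark groups in which the probe was not well above background on both arrays. The lines of Cox8b, Cox7a1 and Cox6b2 slope down from stem cells to non-stem cells, and those of Cox8a, Cox7a2 and Cox6b1 are close to level. Those of Cox6a2, Cox7b2 and Cox8c also slope down, but these were well above background on none of the arrays and were not tested. Heights of different genes come from different probes and are not comparable.

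Because Cox8b and Cox7a1 are known from muscle and brown fat, markers of those tissues are given beside them. Of 10 muscle markers 8 were well above background on none of the arrays, Ckm, Myh1, Myh2 and Myh4 among them, and Acta1 and Mb were so on the non-stem arrays only. The summed signal of the 10 was 0.867 and 1.23 in stem cells against 0.891 and 1.12 in non-stem cells, and with 8 of them below background it is mostly background signal. The part of muscle cells in the result was not tested. Of 5 brown fat markers, Ucp1, Adipoq, Dio2 and Plin1 were well above background on none of the arrays, and Cidea did not pass (-0.33 ± 0.43).

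The promoters of the 3 genes called higher, and of Cox8a as a ubiquitous counterpart, are shown so that the members that moved can be read beside one that did not pass. Each runs from 250 bases before to 50 after the start, 5′ to 3′ on the gene's strand, from RefSeq on GRCm38.p6. Cox8b lies at chr7:140900397-140900696 on the minus strand, Cox7a1 at chr7:30183921-30184220 on the plus strand, Cox6b2 at chr7:4753045-4753344 on the minus strand and Cox8a at chr19:7217567-7217866 on the minus strand. Capitals mark matches, on either strand, to TATAAA (the TATA box), CCAAT (the CCAAT box) and CCGGAAG (a site of ETS factors).
Cox8b: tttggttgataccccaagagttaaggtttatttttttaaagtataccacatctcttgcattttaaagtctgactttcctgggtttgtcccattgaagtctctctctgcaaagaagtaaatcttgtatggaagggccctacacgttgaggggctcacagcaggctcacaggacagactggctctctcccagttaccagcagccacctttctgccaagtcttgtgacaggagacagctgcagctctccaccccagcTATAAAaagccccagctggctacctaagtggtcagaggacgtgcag
Cox7a1: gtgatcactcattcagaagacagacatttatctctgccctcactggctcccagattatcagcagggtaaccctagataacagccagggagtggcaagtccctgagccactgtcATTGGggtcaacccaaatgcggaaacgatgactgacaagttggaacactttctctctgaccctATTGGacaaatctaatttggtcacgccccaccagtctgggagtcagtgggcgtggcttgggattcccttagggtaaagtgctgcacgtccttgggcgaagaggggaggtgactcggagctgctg
Cox6b2: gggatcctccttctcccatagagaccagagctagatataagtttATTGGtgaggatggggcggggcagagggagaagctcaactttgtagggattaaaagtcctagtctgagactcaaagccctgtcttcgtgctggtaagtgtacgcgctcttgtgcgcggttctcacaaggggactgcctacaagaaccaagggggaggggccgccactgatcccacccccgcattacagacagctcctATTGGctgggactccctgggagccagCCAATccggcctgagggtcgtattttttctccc
Cox8a: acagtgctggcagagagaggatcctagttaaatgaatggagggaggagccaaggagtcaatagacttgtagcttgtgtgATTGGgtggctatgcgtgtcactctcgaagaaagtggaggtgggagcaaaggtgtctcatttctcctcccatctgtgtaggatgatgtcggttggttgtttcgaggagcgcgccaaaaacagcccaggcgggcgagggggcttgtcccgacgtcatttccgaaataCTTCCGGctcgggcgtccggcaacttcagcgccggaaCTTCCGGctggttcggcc
Cox8b held 1 TATAAA and no other match. Cox7a1 held 2 CCAAT matches and Cox6b2 held 3. Cox8a held 2 CCGGAAG matches and 1 CCAAT. None of the 4 held the palindrome bound by NRF1, a regulator of respiratory genes, which was searched as GCGCA, any 1 base and GCGC. The ubiquitous counterparts not printed differed from Cox8a. Cox7a2 held no match to any of these motifs, and Cox6b1 held 3 CCAAT matches and 1 CCGGAAG.

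These motifs were chosen after the sequences had been seen, and a match is a description of letters, not a site. Across the 76 promoters listed for 70 of the 86 members, all of which matched a RefSeq gene, the NRF1 palindrome was found in 18 (23.7%) against 4.6% of all 32851 promoters of the same length. CCGGAAG was found in 16 (21.1%) against 8.86%, CCAAT in 32 (42.1%) against 37.4%, and TATAAA in 8 (10.5%) against 13.6%. Both strands were searched, and none of the motifs contains another.

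Complex V makes ATP, and limma called 0 of its 17 tested members, 0 also at an unadjusted p of 0.05. The median difference was -0.01, with 9 members below 0 and 8 above and a range from -0.23 to 0.26. The array medians were 6.80 and 6.85 in stem cells against 6.74 and 6.67 in non-stem cells, which do not overlap. In the catalytic head, Atp5a1 gave 6.80 and 6.85 against 6.64 and 6.52, a difference of 0.25 ± 0.15 (adjusted p = 0.26). Atp5b, which carries the catalytic sites, gave 7.92 and 7.99 against 7.83 and 7.75, a difference of 0.16 ± 0.15 (adjusted p = 0.44). Atp5c1, the rotating shaft, differed by -0.03 ± 0.16 (adjusted p = 0.92). Stem cell values of Atp5a1 and Atp5b were above both non-stem values without passing the test.

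The c-ring of ATP synthase is built from one protein encoded by 3 genes that differ in their import signal. Atp5g1 gave 6.45 and 6.54 in stem cells against 6.74 and 6.70 in non-stem cells, without overlap, and differed by -0.22 ± 0.15 (adjusted p = 0.3). Atp5g2 and Atp5g3 differed by -0.01 ± 0.17 and -0.09 ± 0.16 (adjusted p = 0.97 and 0.69). The 95% intervals of all 3 lay between -0.60 and 0.41. The peripheral stalk subunit Atp5h had the largest value of the complex, 0.26 ± 0.16, and Atp5o, which ties the stalk to the head, had -0.06 ± 0.15. Atp5s, well above background on only 1 of the stem cell arrays, and Atp5sl differed by -0.23 ± 0.18 and 0.01 ± 0.16.

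The proteins above meet, in complexes I, III, IV and V, with subunits read from mitochondrial DNA, which are not among the members. All 12 of those on the array were well above background on all 4 arrays, and limma called 3 higher in stem cells and 0 lower (6 and 0 at an unadjusted p of 0.05). The 3 calls were 25% of the list, against 14.4% of all genes called higher. Their median difference was 0.46, 11 of 12 were above 0, and these 11 (91.7%) were higher without overlap, against 35.1% of all genes. ND6, a complex I subunit and the one encoded on the opposite strand, gave 3.11 and 2.98 in stem cells against 2.03 and 1.73 in non-stem cells, a difference of 1.17 ± 0.18 (limma adjusted p = 0.0076). COX2, which receives electrons from cytochrome c, gave 11.32 and 10.93 against 10.20 and 10.38, a difference of 0.84 ± 0.19 (adjusted p = 0.027). ND4L, another complex I subunit, gave 6.99 and 6.78 against 6.11 and 6.39, a difference of 0.64 ± 0.18 (adjusted p = 0.047). In each case both stem cell arrays lay above both non-stem arrays. ND1 went the other way, with 3.97 and 3.72 against 3.75 and 4.58 and a difference of -0.32 ± 0.30 (adjusted p = 0.45). Its non-stem arrays were far apart, and it overlapped between groups.

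The mitochondrial calls were few and moved with the setting. The number called higher was 1 with quantile normalization, 2 with normexp (and 1 lower), 4 with the percentile over detected probes, 0 without the dim filter, 6 with the filter on all 4 arrays and 9 with an intensity trend. It was 2 without stem replicate 1, 5 without stem replicate 2, 1 without non-stem replicate 1 and 0 without non-stem replicate 2. The median was 0.02 with normexp. Per the scanner files, 5 of the 12 probes (COX2, COX3, ND3, ND4L and ATP8) are placed on chromosome 1, and 7 on the mitochondrial chromosome. Whether the places on chromosome 1 are a nuclear copy of mitochondrial DNA was not tested. The difference between the nuclear members and this list was not tested. The summed signal of striated and granular duct markers was higher and that of erythroid genes lower in stem cells, as given above, and their part in the result was not tested.

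**Figure D3:**
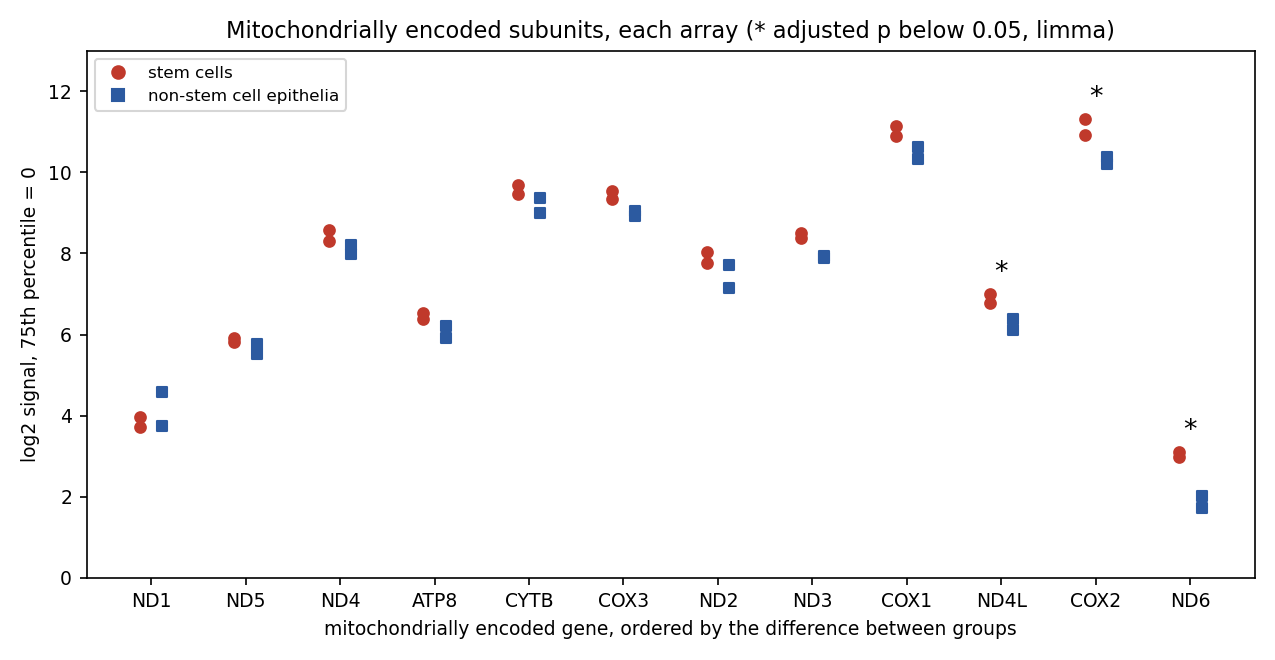
Log2 signal (vertical axis, each array's 75th percentile at 0) of the 12 subunits encoded in mitochondrial DNA, ordered along the horizontal axis by the difference between groups. Circles are the 2 stem cell arrays, squares the 2 non-stem arrays, and asterisks mark the 3 called subunits, ND4L, COX2 and ND6. Circles lie above squares for 11 genes, and ND1 is the exception.

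Genes that carry electrons between the complexes or act on the enzyme were examined next. Cytochrome c (Cycs), the carrier between complexes III and IV, differed by -0.09 ± 0.17. Cytochrome c1 (Cyc1), the heme-bearing subunit of complex III whose symbol lies outside the naming rule, was kept in the same list and differed by -0.22 ± 0.18. In that list of 9 genes, of which 8 were tested, 1 was called higher and 0 lower (0 lower also at an unadjusted p of 0.05), with a median of -0.12. The higher call was 12.5% of the list, against 14.4% of all genes. The called gene was Atpif1, the protein that blocks ATP synthase from running backwards. It gave 7.27 and 7.45 in stem cells against 6.26 and 6.10 in non-stem cells, a difference of 1.18 ± 0.16 (limma adjusted p = 0.0059). Both stem cell arrays lay above both non-stem arrays, while no subunit of the enzyme it binds was called. The call was lost without the dim filter (adjusted p = 0.065) and without non-stem replicate 2 (0.066).

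Assembly factors, which build the complexes and insert their cofactors, had 1 of 29 called higher (3.45%, against 14.4% of all genes) and 2 lower (6.90%, against 16.7%), with a median of -0.16. The lower calls were 12 with normexp (and 0 higher), 8 with the filter on all 4 arrays and 7 with an intensity trend. Over all genes 26.5%, 19.3% and 22.4% were called lower under these settings. Hccs, which attaches heme to cytochromes c, gave 9.46 and 9.31 against 8.81 and 8.62 (0.67 ± 0.16, limma adjusted p = 0.031). Tmem70, needed to assemble ATP synthase, averaged 2.32 in stem cells against 3.07 (-0.75 ± 0.16, adjusted p = 0.021). Cox16, a factor of complex IV, gave 2.88 and 3.02 against 3.64 and 3.45 (-0.59 ± 0.16, adjusted p = 0.043). These calls came with no call among the ubiquitous subunits of complex IV or among complex V. All 3 were lost on leaving out either of the non-stem arrays, with adjusted p-values from 0.093 to 0.18.

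Regulators of mitochondrial biogenesis had 2 of 20 called higher and 1 lower (10% and 5%, against 14.4% and 16.7% of all genes), with a median of 0.04. Ppargc1a, a coactivator known to drive respiratory genes, gave 4.24 and 4.21 in stem cells against 3.18 and 2.99 in non-stem cells (1.14 ± 0.16, limma adjusted p = 0.0059). Its relative Pprc1 gave -0.62 and -0.86 against -1.44 and -1.30 (0.63 ± 0.17, adjusted p = 0.041). Polg, the polymerase of mitochondrial DNA, gave 0.88 and 0.67 against 1.34 and 1.66 (-0.73 ± 0.19, adjusted p = 0.036). The higher level of Ppargc1a thus stood beside a median member difference of -0.02. Its call was lost without the dim filter (0.066) and without non-stem replicate 2 (0.063), and those of Pprc1 and Polg were lost without either non-stem array (0.081 to 0.18).

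The citric acid cycle and pyruvate dehydrogenase, which supply NADH and succinate, had 0 of 21 called higher and 5 lower (0 and 6 at an unadjusted p of 0.05), with a median of -0.02. The lower calls were 23.8% of the list, against 16.7% of all genes. Suclg2, a subunit of the GTP-forming succinyl-CoA ligase, gave 0.07 and 0.77 against 1.54 and 1.89 (-1.29 ± 0.28, limma adjusted p = 0.022). Pdha1, the catalytic subunit of pyruvate dehydrogenase, gave 1.63 and 1.81 against 2.66 and 2.74 (-0.98 ± 0.16, adjusted p = 0.0092). Dld, the lipoamide dehydrogenase shared by these enzymes, differed by -0.71 ± 0.15 (adjusted p = 0.021), and Dlst of the oxoglutarate dehydrogenase complex by -0.64 ± 0.16 (adjusted p = 0.034). The remaining lower call was Pcx, pyruvate carboxylase (-0.83 ± 0.15, limma adjusted p = 0.012). Pcx and the pyruvate carriers Brp44 and Brp44l were kept in the list, although they belong to neither the cycle nor pyruvate dehydrogenase. With either non-stem array left out the list had 0 calls, and with normexp 11 lower. Protein import had 1 of 26 called higher (3.85%, against 14.4% of all genes) and 2 lower (7.69%, against 16.7%). Its median was -0.01, and with normexp there were 0 higher and 12 lower. For both lists the normexp shares over all genes were 10.9% higher and 26.5% lower. Timm17b, part of the inner membrane import channel, fell by 1.04 on the log2 scale, and Dnajc19, of the import motor, by 0.64 (limma adjusted p = 0.007 and 0.033), and the chaperonin Hspe1 was higher by 0.68 (adjusted p = 0.025). The 3 import calls were lost without non-stem replicate 1 (0.06 to 0.15) and without non-stem replicate 2 (0.057 to 0.14).

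Mitochondrial ribosomal proteins, which translate the mitochondrially encoded subunits, had 0 of 75 called higher and 10 lower (2 and 17 at an unadjusted p of 0.05). Their median was -0.17, with 52 below 0 and 23 above. Mrpl37 gave -0.73 and -0.43 in stem cells against 0.40 and 0.66 in non-stem cells (-1.11 ± 0.19, limma adjusted p = 0.011), and Mrpl17 gave 1.58 and 1.72 against 2.63 and 2.66 (-0.99 ± 0.15, adjusted p = 0.008). Mrps12 and Mrpl46 were lower by smaller amounts, with differences of -0.57 ± 0.16 and -0.59 ± 0.15 (adjusted p = 0.042 and 0.036). The count of lower calls was 43 with normexp, 6 with quantile normalization (and 2 higher) and 0 with either non-stem array left out. With the main setting the lower calls were 13.3% of the list, below the 16.7% of all genes, so that number is not a result about these proteins. With normexp they were 43 of 75, against 26.5% of all genes. In the main setting 49.3% of the list were lower without overlap and 12% higher, against 36.1% and 35.1% of all genes.

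**Figure D4:**
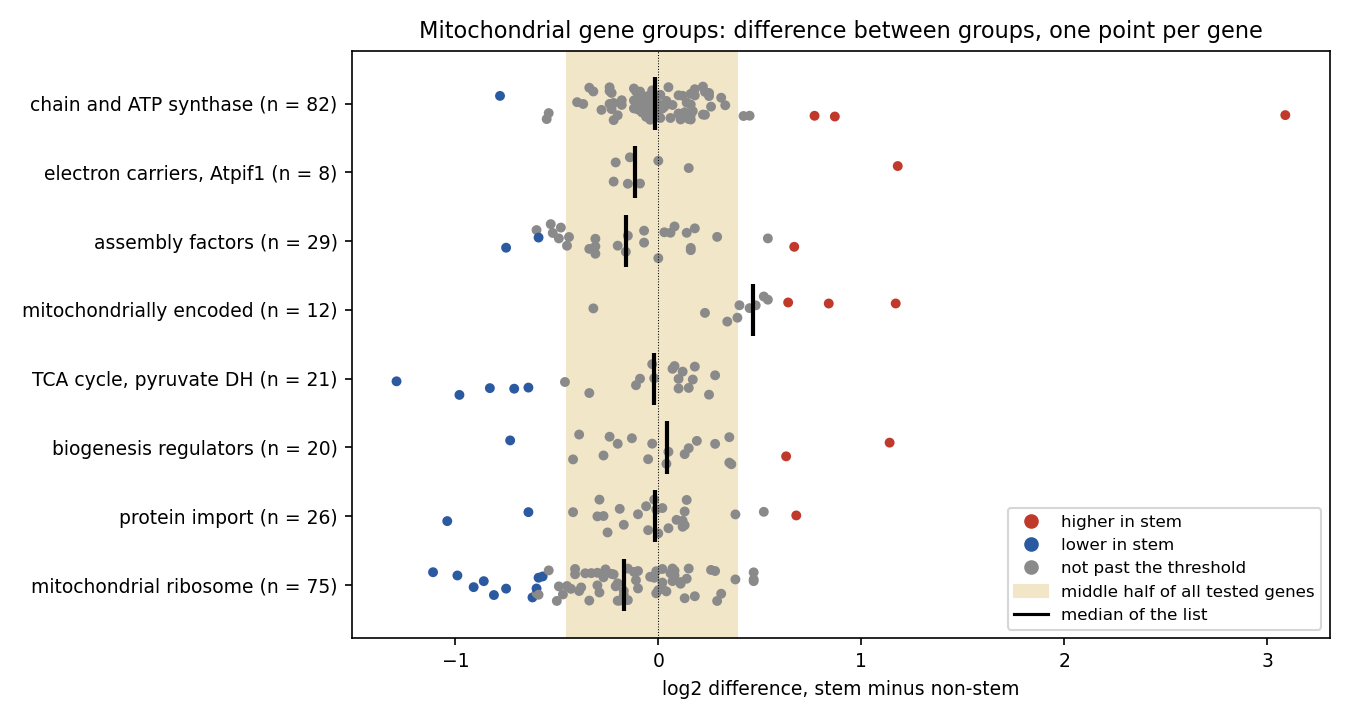
Log2 difference (horizontal axis, stem minus non-stem) with a point for each tested gene of the respiratory chain and ATP synthase and of 7 other mitochondrial lists, coloured by call. Black lines are list medians and the band spans the quartiles of all tested genes. The chain and ATP synthase cluster around 0, and the mitochondrially encoded subunits have the highest median at 0.46.

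Set side by side, the complexes differed little, and they were compared by description only. The medians were -0.05 for complex I, -0.12 for complex II, -0.00 for complex III, 0.18 for complex IV and -0.01 for complex V. Complex IV was the highest under the main setting, quantile normalization and normexp alike, and within each complex the array medians of the groups overlapped except in complex V. When the 75th percentile was taken over detected probes, the medians were 0.09 for complex I, 0.01 for complex II, 0.31 for complex IV and 0.12 for complex V, while the median of all genes moved to 0.13. Relative to the median of all genes the members then stood at -0.01, as they did with the main setting. With that scaling 59.4% of all calls were higher, against 46.3% with the main setting and 29.1% with normexp.

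**Figure D5:**
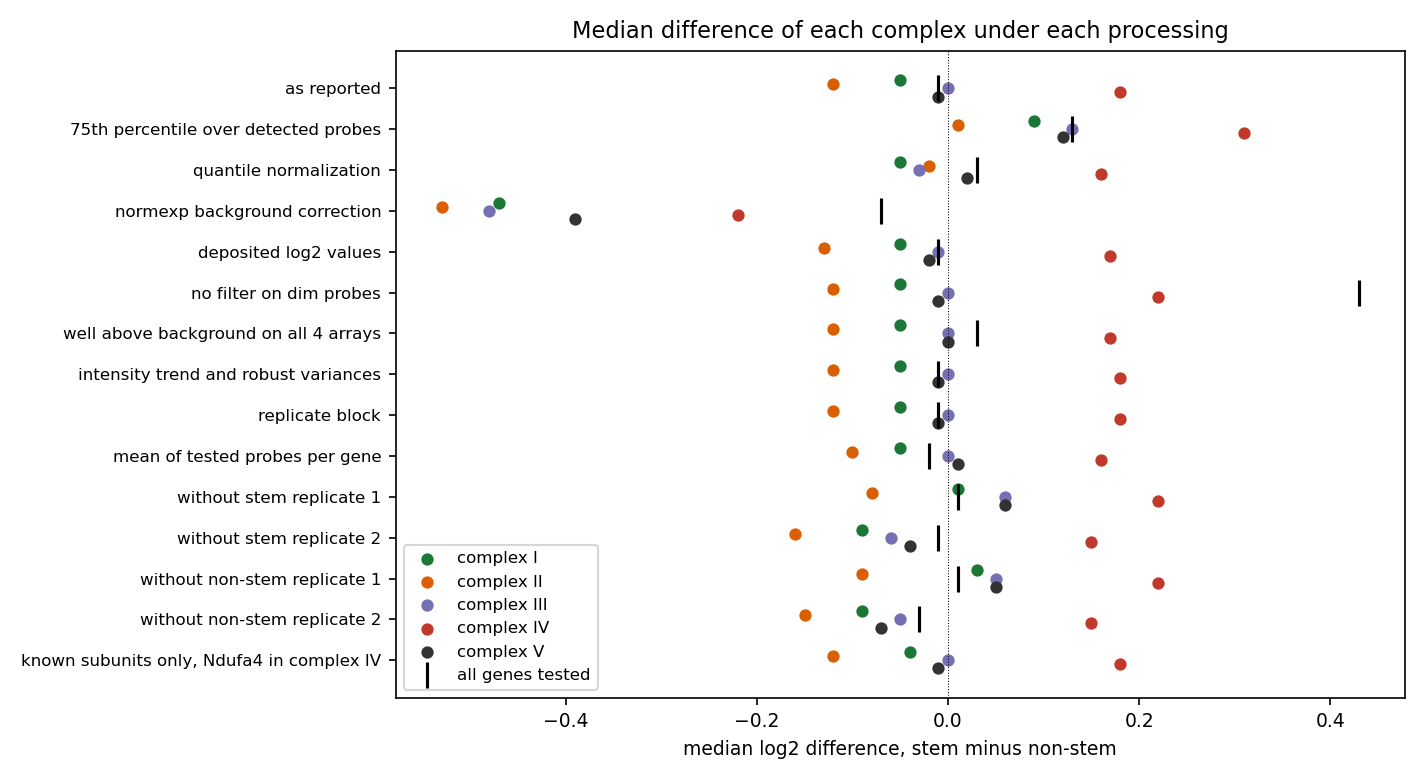
Median log2 difference (stem minus non-stem) of complexes I to V under the main setting (as reported) and its alternatives, with a bar for the median of all genes tested. With normexp background correction all 5 medians are below 0, from -0.53 for complex II to -0.22 for complex IV, and complex IV is the highest there as with the main setting.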

How the data were processed

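RNA of 4 samples was measured on one-colour Agilent arrays. The deposited scanner files hold intensity on a linear scale, made with Agilent Feature Extraction 10.7.3.1 per the file headers, on a mouse design with probe positions on mm9. The submitters' processing notes name version 9.1 instead, which was not resolved. The authors also deposited a table of log2 values without stating their centring. Differences between its columns correlated at 1 with those used here, which settles the log2 scale and the direction, and the table served only as an alternative.

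The scanner's background-corrected signals of non-control spots were taken to log2, outlier-flagged spots were dropped, each array's 75th percentile was subtracted, and repeated spots were averaged by probe. A gene is the scanner file's gene name, represented by its brightest probe, and 61 members had a single probe. Genes well above background on at least 2 arrays were tested two-sided with limma 3.58.1 (R 4.3.3; lmFit, then eBayes; 5.47 degrees of freedom). P-values were adjusted by Benjamini-Hochberg over the whole set of tested genes, and the threshold was 0.05. The number of arrays limits the precision. Same-numbered samples share only a number: their deviations from the group means correlated at -0.1 over all genes.

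The members and all gene lists were chosen with earlier results of these data known, and no list was tested as a set. Named genes are those past the threshold at the ends of each complex and list, the isoform families, the catalytic or cofactor-bearing subunits, all of complex II and names that are no subunit. Other genes were named after their values were seen. The results of 1 member are not reported here, although it stays in the counts and medians. RefSeq promoters are those of GRCm38.p6. The alternatives changed the percentile, used quantile normalization, normexp (offset 50) or the deposited values, dropped the dim filter or required all 4 arrays, fitted a variance trend or a replicate block, averaged each gene's probes, kept known subunits only, or left out 1 array.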

Additional observations from a re-analysis of the deposited data

How the results depend on the processing

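The direction of the 4 called members held in each alternative in which they were tested, although that of Cox8b rests on non-stem readings below background. Against 3 members higher and 1 lower, the counts were 5 and 0 with the percentile over detected probes, 3 and 0 under quantile normalization, 1 and 39 under normexp, 1 and 0 without the dim filter, 3 and 3 with the filter on all 4 arrays, 6 and 7 with an intensity trend and robust variances, and 3 and 2 with the mean of a gene's probes. The replicate block gave 3 and 1 (2370 and 2906 over all genes), and among the members it changed no call. It lowered the count of mitochondrial ribosomal proteins called lower from 10 to 6 and ended the calls of ND4L (limma adjusted p = 0.065), Cox16 (0.074), Dlst (0.055), Dnajc19 (0.057) and Pprc1 (0.064). A crossed pairing, added after the data had been seen, gave 3 and 0. Leaving out each array in turn gave 1 to 3 higher and 0 to 2 lower, and over all genes 597 to 3037 higher and 752 to 3589 lower, the low ends being those without a non-stem array. Over all genes normexp gave 1882 higher and 4581 lower, and testing all 36163 names without the dim filter gave 822 and 742. The called mitochondrial genes named in the text, other than Cox8b, lost their calls without that filter. The cause of these shifts was not tested.

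The median over all members was 0.12 with the percentile over detected probes and -0.43 with normexp. By complex, the former gave 0.09 for I, 0.01 for II, 0.31 for IV and 0.12 for V, and the latter -0.47 for I, -0.53 for II, -0.48 for III, -0.22 for IV and -0.39 for V. Leaving out an array moved the median of complex V between -0.07 and 0.06. Leaving out names that are no subunit and moving Ndufa4 to complex IV left the medians at -0.04 for I and 0.18 for IV.

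Some named genes changed sign, none of them called in the main comparison. With the percentile over detected probes the differences became 0.11 for Atp5c1, 0.12 for Atp5g2, 0.04 for Atp5g3, 0.10 for Cox4nb, 0.04 for Cycs, 0.01 for Ndufa4, 0.07 for Ndufs7, 0.01 for Sdhc and 0.02 for Sdhd. Cox4nb became 0.00 with quantile normalization. Normexp turned 23 named values. It gave -0.21 for Atp5a1, -0.29 for Atp5b, -0.21 for Atp5h, 0.19 for Atp5s and -0.38 for Atp5sl. In complex IV it gave -0.22 for Cox4i1, -0.22 for Cox5a, -0.34 for Cox5b, -0.16 for Cox6b1, -0.01 for Cox6c, -0.33 for Cox7a2, -0.33 for Cox7a2l, -0.24 for Cox7b, -0.39 for Cox7c and -0.28 for Cox8a. In the other complexes it gave -0.12 for Ndufa5, -0.19 for Ndufa9, -0.35 for Ndufs1, -0.22 for Ndufs3, -0.41 for Ndufv1, -0.46 for Ndufv2 (adjusted p = 0.041 by limma), -0.28 for Sdha and -0.01 for Uqcr10. With the mean of probes Atp5g2 became 0.02 and Cox7c -0.07. Leaving out an array moved Atp5c1 between -0.11 and 0.06, Atp5g2 between -0.13 and 0.11, Atp5g3 between -0.21 and 0.03, Atp5sl between -0.11 and 0.13, Cox7c between -0.09 and 0.13, Cycs between -0.20 and 0.02, Cox4i2 between -0.60 and 0.05, Cox4nb between -0.15 and 0.08, Ndufv1 between -0.06 and 0.10, Ndufv2 between -0.04 and 0.06 and ND1 between -0.73 and 0.09. With 2 arrays per group, a fit without 1 of them assumes that the lone array varies like the other group.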
